A study of Homo sapiens with 16 samples.

Results

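The integrated stress response was followed here through 36 genes of ATF4 and amino acid supply. The genes were listed by name, as known parts or targets of the response, and the rule uses no measured value. The list was chosen with earlier results of these data known, however. Shares of all genes set beside the members are therefore a description and not an independent comparison. All 36 symbols were found among the 18227 genes of the deposited tables. The 16 RNA-seq libraries came from A549 and H2023, 2 established human cell lines derived from lung cancers of the non-small cell type. Wild-type cells of each line were set against cells labelled as a knockout of ZC3H12A, the gene of the RNase Regnase-1, which cleaves selected mRNAs, many of them inflammatory. Both were grown for 3 days in normal culture, which the labels also call Parent, or for 7 days in a culture that enriches stem-like cells, called Oncosphere, so that culture type and time change together. Each of the 8 combinations of line, genotype and culture has 2 libraries, and no group shares a further allele or agent in the labels. The titles of the knockout libraries name 1 clone for each line, so a difference from wild type holds the edit together with whatever else sets that clone apart.

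When amino acids run short, unfolded proteins build up or another stress is sensed, kinases phosphorylate the initiation factor eIF2, which lowers protein synthesis in general and raises translation of the ATF4 mRNA. The transcription factor ATF4, bound to a C/EBP partner, then raises transcription of enzymes that make asparagine, serine, glycine and proline, of transporters that import amino acids, and of regulators such as CHOP and TRIB3, which close the response or turn it towards cell death. In lung cancer cells these genes are best known for the serine and asparagine supply of growing cells. Much of the control of ATF4 lies in translation, which RNA sequencing does not measure.

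The element that ATF4 and its C/EBP partner bind was looked for upstream of the members, and every match found is printed to show the element within its promoter. The letters TTNCATCA, or TGATGNAA on the other strand, were searched in the 250 bases before each RefSeq start (GRCh38.p14). They were found in only 5 of the 29 members that the promoter table holds, which is 17.2%, and in 1061 of 27305 genes, which is 3.89%. The stricter TTGCATCA, or TGATGCAA, is 1 case of the wider motif and was found in 3 members (CHAC1, JDP2 and SLC1A5; 10.3%) and in 264 genes (0.967%). Members had 47 starts in the table and all genes 35116, so a member had more windows than an average gene, and the table also holds non-coding genes. Capitals mark the match, each sequence runs 5′ to 3′ on the strand of its gene, and positions are counted from the RefSeq start.
ATF3 (chr1:212565205-212565234, + strand, match at -191 to -184): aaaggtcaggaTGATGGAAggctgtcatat
ASNS (chr7:97872458-97872487, - strand, match at -68 to -61): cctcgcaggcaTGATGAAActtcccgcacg
JDP2 (chr14:75427995-75428021, + strand, match at -16 to -9): atagccggggcTGATGCAAcccgtccc
CHAC1 (chr15:40953251-40953280, + strand, match at -209 to -202): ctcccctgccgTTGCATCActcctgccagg
SLC1A5 (chr19:46784893-46784922, - strand, match at -97 to -90): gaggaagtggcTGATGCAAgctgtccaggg
A match is a description of the letters and not of bound protein. The ASNS, CHAC1 and SLC1A5 windows overlap exons of the GENCODE annotation, and the ATF3 and JDP2 windows overlap none.

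Values are TPM, a length-corrected share of the transcripts of a library that the authors computed, so levels of different genes can be compared. Fold changes are differences of log2(TPM + 1) with standard errors from limma, which understate the change of low genes, and p-values are adjusted over all 18227 genes. A gene is called, or said to rise or fall, where the adjusted p is under 0.05. Nothing in the labels says that the 2 libraries of a group came from separate cultures, so p-values measure a spread between libraries that may be technical. That spread is pooled per gene over all 8 groups, so a gene has the same standard error in all 4 knockout comparisons. For many members the wild-type A549 libraries of stem-cell-enriched culture lay further apart than those of other groups, and the pooled standard error understates their spread. A library had 13824 to 14508 genes at 1 TPM or more, the 2 libraries of a group correlated at 0.974 to 0.989 (Pearson's r of log2 values across genes with a mean of 1 TPM or more, a description), and mitochondrial genes took 10.3% to 18.7% of the TPM in normal and 19.5% to 25.6% in stem-cell-enriched culture. TPM keeps no record of depth, so the number of reads behind a value of a single library is unknown. The deposited normalized counts, averaged over the 4 libraries of a line in a culture, sum to between 20453740 and 22760512. The targeted gene does not follow its label in 3 of the 4 comparisons. In A549 normal culture ZC3H12A was at 30.7, 34.9, 16.9 and 19.9 TPM (wild type, then labelled knockout). The change there was -0.80 ± 0.15 (limma, adjusted p = 0.00387), and no fall was seen elsewhere: 0.24 ± 0.15 in the other A549 culture (adjusted p = 0.304), 0.54 ± 0.15 in H2023 normal culture (adjusted p = 0.0835) and 1.43 ± 0.15 in H2023 stem-cell-enriched culture (adjusted p = 0.00045). A transcript can persist after an edit, so this is no check of the protein, and the groups are called "labelled knockout" here.

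In A549 cells of the stem-cell-enriched culture, the libraries labelled knockout held less mRNA of most of these genes than wild type. Of the 36 members, 24 fell and none rose, against 10.5% of all genes lower and 10.2% higher (20.7% in either direction). The median change was -1.11 over the members and 0.03 over all genes. Falls were spread over all roles: 2 of 7 transcription factors and regulators, 3 of 5 feedback and signalling genes, 8 of 10 enzymes of amino acid synthesis, 3 of 3 mitochondrial one-carbon enzymes, 6 of 7 transporters and 2 of 4 secreted, receptor and tRNA export genes. In 31 members both labelled-knockout libraries lay below both wild-type libraries, an order found in 27.8% of all genes; the other 5 (ATF3, ATF5, CEBPB, CTH and STC2) overlapped. In bulk RNA, fewer cells that express a gene and less of its RNA per cell cannot be told apart.

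**Figure D1:**
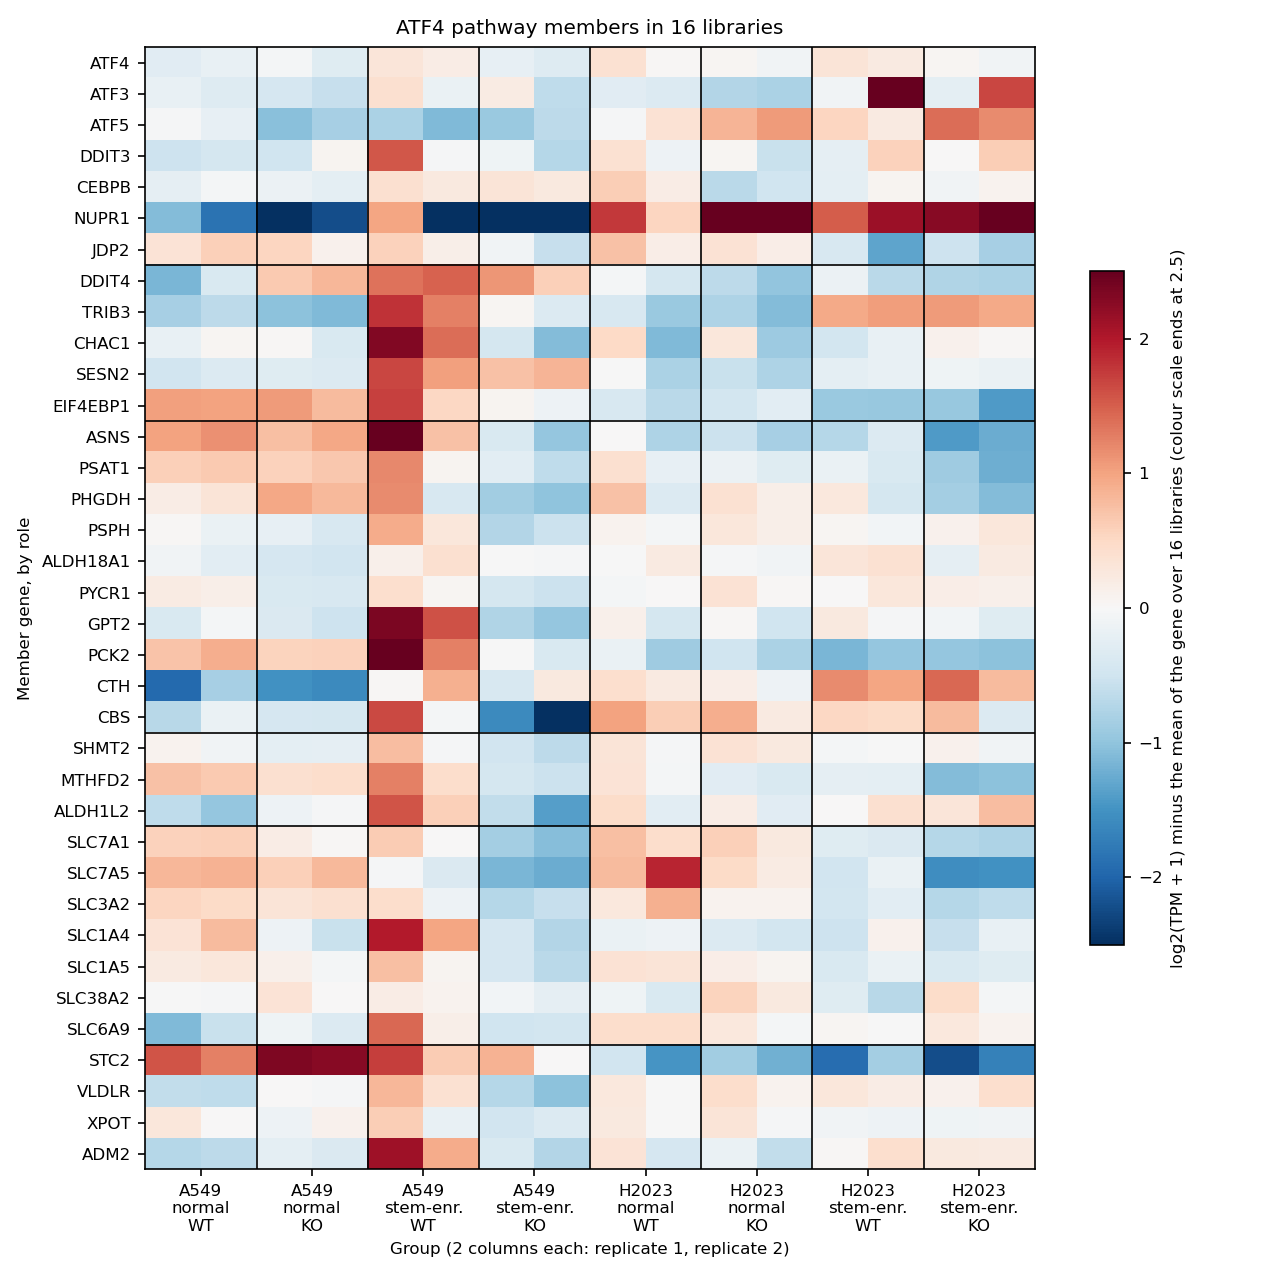
The 36 members (rows, by role) in the 16 libraries (columns, 2 per group), coloured by log2(TPM + 1) minus the gene's mean over all libraries, with the colour scale ending at 2.5 in both directions. Replicate 1 of wild-type A549 in stem-cell-enriched culture is the reddest column for most synthesis and feedback genes, and replicate 2 of that group is paler.

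One library stood apart for these genes and is given first. Between the 2 wild-type A549 libraries of stem-cell-enriched culture, replicate 1 was higher than replicate 2 in 33 of 36 members, by a median of 0.73 on the log2(TPM + 1) scale, while the median over all genes was 0.03. The gap was over 1 in 11 members and in 1.31% of all genes. The other groups had a member median of -0.06 to 0.38 between their replicates, the highest in wild-type H2023 of normal culture (replicate 1 higher in 30 members) and then in labelled-knockout H2023 of normal culture (0.29; 33 members). Without that A549 library 16 of the 24 calls remained, all lower, against 6.92% of all genes called lower, and the median change of the members was -0.61. The 8 that were lost were ATF4, NUPR1, EIF4EBP1, PSAT1, PHGDH, SLC7A5, SLC3A2 and SLC6A9. Without replicate 2 in its place, all 24 remained and DDIT3 and XPOT joined them. Leaving out labelled-knockout replicate 2 left 16 calls, and leaving out its replicate 1 left 19, lower in each case. With only the 4 libraries of this comparison in the fit, 15 members were called lower, against 7.20% of all genes. The 9 calls lost there were NUPR1, ASNS, PSAT1, PHGDH, SHMT2, SLC3A2, SLC1A5, SLC6A9 and EIF4EBP1. The authors' deposited table calls 25 members in this comparison, all lower, beside 2001 of its 17520 tested genes called lower. PSAT1, PHGDH and EIF4EBP1 are not among the 25, and DDIT4, SLC38A2, XPOT and JDP2 are.

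**Figure D2:**
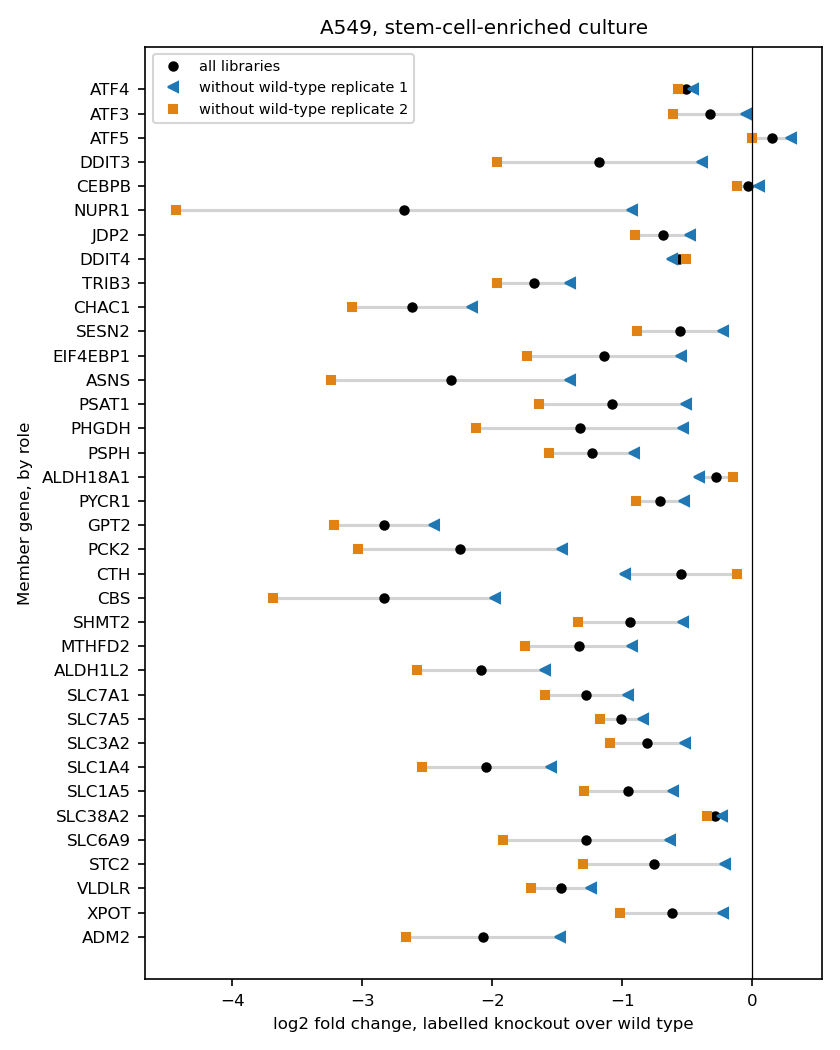
Log2 fold change of labelled knockout over wild type for the 36 members in A549 stem-cell-enriched culture, from all libraries (black circles), without wild-type replicate 1 (blue triangles) and without wild-type replicate 2 (orange squares). The triangle lies to the right of the square for 33 of the 36 members, all but DDIT4, ALDH18A1 and CTH, and NUPR1 moves most.

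Values below are in the order wild-type replicates 1 and 2, then labelled-knockout replicates 1 and 2, in TPM. ATF4 (chr22:39519695-39522685 in GRCh38, as are the gene positions below), the factor after which the response is often named, was at 386, 357, 269.7 and 251 TPM in this A549 culture. Both labelled-knockout libraries were lower than both wild-type libraries, and the fall was small: -0.51 ± 0.13 (limma, adjusted p = 0.0149), or -0.46 with adjusted p = 0.0994 without wild-type replicate 1. NUPR1, a small stress-induced chromatin protein, was at 45.9, 3.12, 0.77 and 1.66 TPM. It was high in wild-type replicate 1 alone, and its fall of -2.68 ± 0.82 (limma, adjusted p = 0.0366) became -0.93 with adjusted p = 0.296 without that library. DDIT3, which encodes CHOP and drives the death branch of the response, was at 52.1, 16.8, 15.8 and 10.03 TPM. Its wild-type values did not overlap the others, with replicate 1 far above replicate 2, and its change of -1.18 ± 0.46 did not pass (limma, adjusted p = 0.0919). ATF3, a stress-induced repressor, was at 4.57, 2.77, 3.87 and 1.74 TPM and ATF5, a factor translated like ATF4, at 24.4, 19.6, 22.1 and 26.98 TPM. Both overlapped between genotypes (adjusted p = 0.796 and 0.606). CEBPB, a C/EBP partner of ATF4, ran from 121 to 136 TPM in these 4 libraries, with overlap, and JDP2, a repressor of AP-1 genes, from 8.90 to 20.9 TPM, without overlap but not called (adjusted p = 0.134).

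Among the feedback and signalling genes, TRIB3, CHAC1 and EIF4EBP1 fell. TRIB3 (chr20:362835-397559), a pseudokinase that binds and restrains ATF4 and CHOP, was at 301, 204, 88.1 and 66.6 TPM. Both labelled-knockout values lay under the lower wild-type value, a change of -1.68 ± 0.21 (limma, adjusted p = 0.000143) that was -1.40 without wild-type replicate 1 (adjusted p = 0.00211). CHAC1 (chr15:40952962-40956519), an enzyme that breaks down glutathione, was at 32.9, 16.8, 4.01 and 2.19 TPM. Its fall of -2.62 ± 0.50 (limma, adjusted p = 0.00278) was -2.15 without that library (adjusted p = 0.0369). EIF4EBP1, which holds back cap-dependent translation, was at 294, 129, 94.0 and 82.3 TPM, with replicate 1 of wild type far above the rest. It changed by -1.14 ± 0.29 (limma, adjusted p = 0.0138), and the change was -0.55 with adjusted p = 0.0953 without that library. DDIT4, an inhibitor of mTORC1, was at 695, 748, 585 and 408 TPM and not called (adjusted p = 0.146), and SESN2, a leucine sensor that also restrains mTORC1, ranged from 7.88 to 16.02 TPM and was not called either (adjusted p = 0.151).

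**Figure D3:**
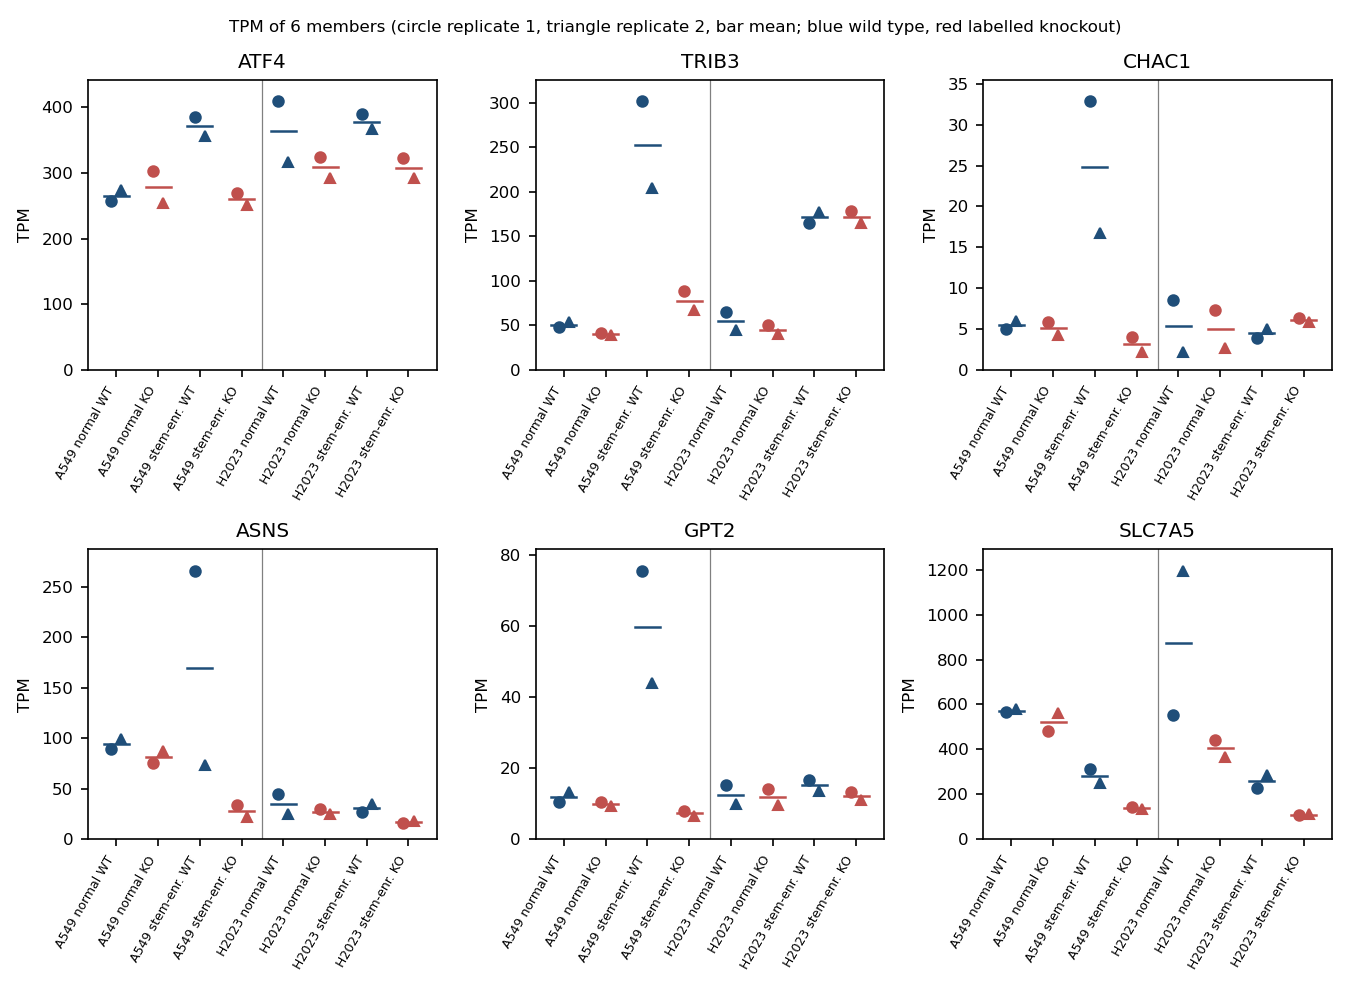
TPM of ATF4, TRIB3, CHAC1, ASNS, GPT2 and SLC7A5 in the 8 groups (circle, replicate 1; triangle, replicate 2; bar, mean; blue, wild type; red, labelled knockout). Wild-type A549 in stem-cell-enriched culture has the highest mean for TRIB3, CHAC1, ASNS and GPT2, while SLC7A5 is highest in replicate 2 of wild-type H2023 in normal culture (1195 TPM).

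The enzymes of amino acid synthesis held the most falls, with GPT2, CBS, ASNS and PCK2 the furthest apart. GPT2 (chr16:46884378-46931297), the mitochondrial alanine transaminase, was at 75.6, 43.95, 7.86 and 6.63 TPM. The 2 genotypes were far apart in both replicates, -2.84 ± 0.27 (limma, adjusted p = 2.05e-05) and -2.45 without wild-type replicate 1 (adjusted p = 0.000323). ASNS (chr7:97852118-97872542), asparagine synthetase, was at 266, 73.4, 33.5 and 22.1 TPM. Here the 2 wild-type libraries differed by more than the lower of them differed from the labelled-knockout libraries, and the change was -2.32 ± 0.45 (limma, adjusted p = 0.00294) or -1.40 without replicate 1 (adjusted p = 0.0135). PCK2, the mitochondrial PEP carboxykinase, showed the same order at 178, 59.2, 23.9 and 18.1 TPM, a fall of -2.25 ± 0.38 (limma, adjusted p = 0.00124) that was -1.46 without wild-type replicate 1 (adjusted p = 0.00427). CBS, cystathionine beta-synthase, was at 64.2, 18.9, 5.9 and 2.7 TPM and fell by 2.83 ± 0.50 (limma, adjusted p = 0.00174). CBS has a near-identical copy, CBSL, in GRCh38, and how reads of the 2 were shared is not given in the sources used here, so its level is uncertain.

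The 3 enzymes that make serine from glycolysis fell together but not equally firmly. PSPH, the last of them, was at 74.1, 46.9, 22.9 and 26.2 TPM, with no overlap, a fall of -1.24 ± 0.18 (limma, adjusted p = 0.000428) that was -0.91 without wild-type replicate 1 (adjusted p = 0.00285). PHGDH, the entry enzyme, was at 156, 51.0, 36.5 and 33.4 TPM. It changed by -1.33 ± 0.43 (limma, adjusted p = 0.0472), and the change was -0.53 with adjusted p = 0.412 without that library. PSAT1, the transaminase between them, was at 308, 139.9, 111 and 86.1 TPM, with 1 wild-type library far above the other. Its fall of -1.07 ± 0.29 (limma, adjusted p = 0.0216) became -0.51 with adjusted p = 0.199. PYCR1, which finishes proline synthesis, was at 109, 83.97, 60.1 and 56.2 TPM and fell by 0.71 ± 0.14 (limma, adjusted p = 0.00336), while ALDH18A1, which starts it, was not called (48.3 to 65.0 TPM). CTH, the cystathionine lyase that acts after CBS, overlapped between genotypes (7.04 to 18.9 TPM).

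All 3 mitochondrial enzymes that move single-carbon units from serine fell. SHMT2, which splits serine into glycine, was at 237, 135, 98.96 and 87.6 TPM, a change of -0.94 ± 0.20 (limma, adjusted p = 0.00606). MTHFD2, which oxidises the carbon unit, was at 274, 155, 83.5 and 78.6 TPM, a change of -1.33 ± 0.20 (limma, adjusted p = 0.000562). ALDH1L2, a formyl-folate dehydrogenase at a lower level, was at 31.9, 15.6, 6.13 and 3.23 TPM and changed by -2.09 ± 0.35 (limma, adjusted p = 0.00128). In each of the 3 the labelled-knockout values lay under both wild-type values. Without wild-type replicate 1 the changes were -0.54, -0.92 and -1.60, in that order. With only the 4 libraries of this comparison in the fit, MTHFD2 and ALDH1L2 stayed called and SHMT2 did not.

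Of the transporters, all but SLC38A2 fell. SLC7A5, the light chain of the LAT1 exchanger for large neutral amino acids, was at 314, 249, 143 and 134 TPM, a fall of -1.01 ± 0.27 (limma, adjusted p = 0.0182). SLC3A2, its heavy chain, was at 511, 342, 228 and 251 TPM, a fall of -0.81 ± 0.20 (adjusted p = 0.0127). SLC1A4, a carrier of serine and alanine, stood far apart between genotypes at 29.1, 14.1, 4.75 and 3.63 TPM (log2 change -2.05 ± 0.32, adjusted p = 0.000672). The glutamine carrier SLC1A5 was at 304, 189, 135 and 112 TPM (-0.95 ± 0.18, adjusted p = 0.00238), and its change was -0.61 without wild-type replicate 1 (adjusted p = 0.0156). SLC7A1, which carries arginine and lysine, was at 31.6, 19.9, 10.6 and 9.01 TPM (-1.28 ± 0.19, adjusted p = 0.000596). SLC6A9, the glycine carrier GLYT1, was at 30.01, 11.7, 7.05 and 7.33 TPM (-1.28 ± 0.32, adjusted p = 0.0135), where only wild-type replicate 1 stood well clear of the others. SLC38A2, a glutamine and alanine carrier that cells raise on amino acid shortage, ran from 159 to 213 TPM. It was not called (limma, adjusted p = 0.324), though the authors' deposited table calls it lower (-0.42). Without wild-type replicate 1 the call was lost for SLC7A5 (-0.84, adjusted p = 0.132), SLC3A2 (-0.52, adjusted p = 0.136) and SLC6A9 (-0.63, adjusted p = 0.107).

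In the last group, VLDLR and ADM2 fell and STC2 and XPOT did not pass. VLDLR, a lipoprotein receptor that stress raises, was at 31.5, 22.7, 10.2 and 7.94 TPM, a fall of -1.47 ± 0.19 (limma, adjusted p = 0.000186) that was -1.24 without wild-type replicate 1 (adjusted p = 0.00295). The peptide hormone ADM2 was low throughout, at 8.55, 3.2, 0.7 and 0.33 TPM, and fell by 2.07 ± 0.34 (limma, adjusted p = 0.00104). The pseudocount of 1 shrinks the change of a gene at this level. STC2, a secreted glycoprotein, overlapped between genotypes (19.9 to 68.4 TPM), and XPOT, which exports tRNA from the nucleus, had an adjusted p of 0.0576. Some cell type markers moved with the genotype in these 4 libraries, and their part in the result was not tested. LYZ, the 1 haematopoietic marker of 5 found in the tables, was at 18.6, 6.81, 0.28 and 0 TPM, and PECAM1, the 1 endothelial marker of 5, at 2.76, 1.77, 0.63 and 0.81 TPM. Of the 5 epithelial markers, EPCAM was at 9.4, 7.94, 0.82 and 1.03 TPM and KRT19 at 46.8, 101, 3.29 and 5.92 TPM, lower in both labelled-knockout libraries. CDH1 went the other way, at 73.1, 62.4, 84.5 and 79.0 TPM, higher in both labelled-knockout libraries. The summed epithelial level was nearly all KRT8 and KRT18 and overlapped between genotypes, from 5230.2 to 6570.3 TPM in wild type and from 4995 to 7195 TPM in the labelled knockout. The fibroblast markers (2 of 5) summed to between 1.13 and 4.34 TPM, the neuroendocrine markers (3 of 5) to between 94.0 and 145 TPM, and the mitochondrial share was 19.5% to 23.3%.

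In A549 cells of normal culture few members differed. ATF5 and PYCR1 fell and DDIT4 and VLDLR rose. These are 4 calls of 36 against 7.32% of all genes higher, 10.4% lower and 17.7% in either direction. In this limma fit the members did not exceed the background. DDIT4 was at 123, 207, 426 and 482 TPM, both labelled-knockout values above both others (1.502 ± 0.25, limma, adjusted p = 0.002). ATF5 was at 42.5, 37.5, 20.5 and 23.9 TPM, a fall of -0.82 ± 0.17 (limma, adjusted p = 0.00733). PYCR1, at 94.0, 90.8, 62.05 and 61.4 TPM, fell by 0.57 ± 0.14 (adjusted p = 0.0149) and VLDLR, at 10.9, 10.7, 17.4 and 16.96 TPM, rose by 0.62 ± 0.19 (adjusted p = 0.0399). None of these 4 overlapped between genotypes. Of the 4, only DDIT4 stayed called without wild-type replicate 1 or without labelled-knockout replicate 1, VLDLR was lost without wild-type replicate 2, and PYCR1 and VLDLR were lost without labelled-knockout replicate 2. The authors' deposited table gives 11 members with an adjusted p under 0.05 in this comparison, 6 higher and 5 lower, and 22.1% of all its tested genes. Those not called in limma are NUPR1, SLC7A1 and SLC1A4, lower, and PHGDH, ALDH1L2, SLC6A9 and STC2, higher. The summed epithelial markers moved with genotype here, at 7417 and 7626 TPM in wild type and at 2523 and 1450.1 TPM in the labelled knockout. Their part in these calls was not tested.

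Of the genes that fell in stem-cell-enriched culture, PYCR1 alone also fell here. ATF4 was at 257, 274, 303 and 254 TPM, TRIB3 at 47.4, 53.8, 41.3 and 38.9 TPM and CHAC1 at 4.95, 6.0, 5.86 and 4.22 TPM. No change of these 3 passed (adjusted p = 0.789, 0.308 and 0.912), although both TRIB3 values of the labelled knockout were below the wild-type ones. ATF3 was at 2.74, 2.41, 2.17 and 1.83 TPM, DDIT3 at 11.7, 12.3, 11.8 and 17.97 TPM, NUPR1 at 10.1, 5.56, 2.28 and 4.09 TPM and CEBPB at 88.1, 99.9, 92.6 and 86.99 TPM. Among these, the NUPR1 and ATF3 values did not overlap, and none was called. ASNS was at 89.7, 98.9, 75.02 and 86.8 TPM, GPT2 at 10.4, 13.4, 10.6 and 9.41 TPM, PCK2 at 39.99, 46.04, 35.7 and 36.1 TPM and CBS at 11.9, 17.3, 14.4 and 14.2 TPM. ASNS and PCK2 were lower in both labelled-knockout libraries, by less than the test could separate from 0 (adjusted p = 0.783 and 0.697). For the serine enzymes, PHGDH was at 77.2, 85.5, 134 and 119.8 TPM, PSAT1 at 203, 212, 201 and 215 TPM and PSPH at 39.2, 33.9, 33.1 and 28.8 TPM. PHGDH was the 1 serine enzyme with both labelled-knockout values above wild type (0.63 ± 0.43, adjusted p = 0.344). SHMT2 was at 146, 130.5, 117 and 117 TPM, MTHFD2 at 190.1, 180.4, 151 and 154 TPM, ALDH1L2 at 6.09, 4.66, 9.04 and 9.74 TPM and EIF4EBP1 at 184, 181, 189 and 156 TPM. The first pair were lower and ALDH1L2 higher in both labelled-knockout libraries, with no call. SLC7A5 was at 565, 580.0, 480.1 and 562 TPM, SLC3A2 at 547, 526, 470.0 and 499 TPM and SLC1A5 at 210.1, 220.2, 197 and 174 TPM. SLC7A1 was at 30.2, 30.6, 22.6 and 20.4 TPM, SLC1A4 at 8.74, 12.2, 6.02 and 4.19 TPM, SLC6A9 at 4.31, 6.73, 9.61 and 8.01 TPM, SLC38A2 at 184, 183, 237 and 187 TPM and ADM2 at 0.34, 0.41, 0.87 and 0.72 TPM. All 7 transporters went uncalled, the nearest being SLC1A4 (-0.91 ± 0.32, adjusted p = 0.0672).

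**Figure D4:**
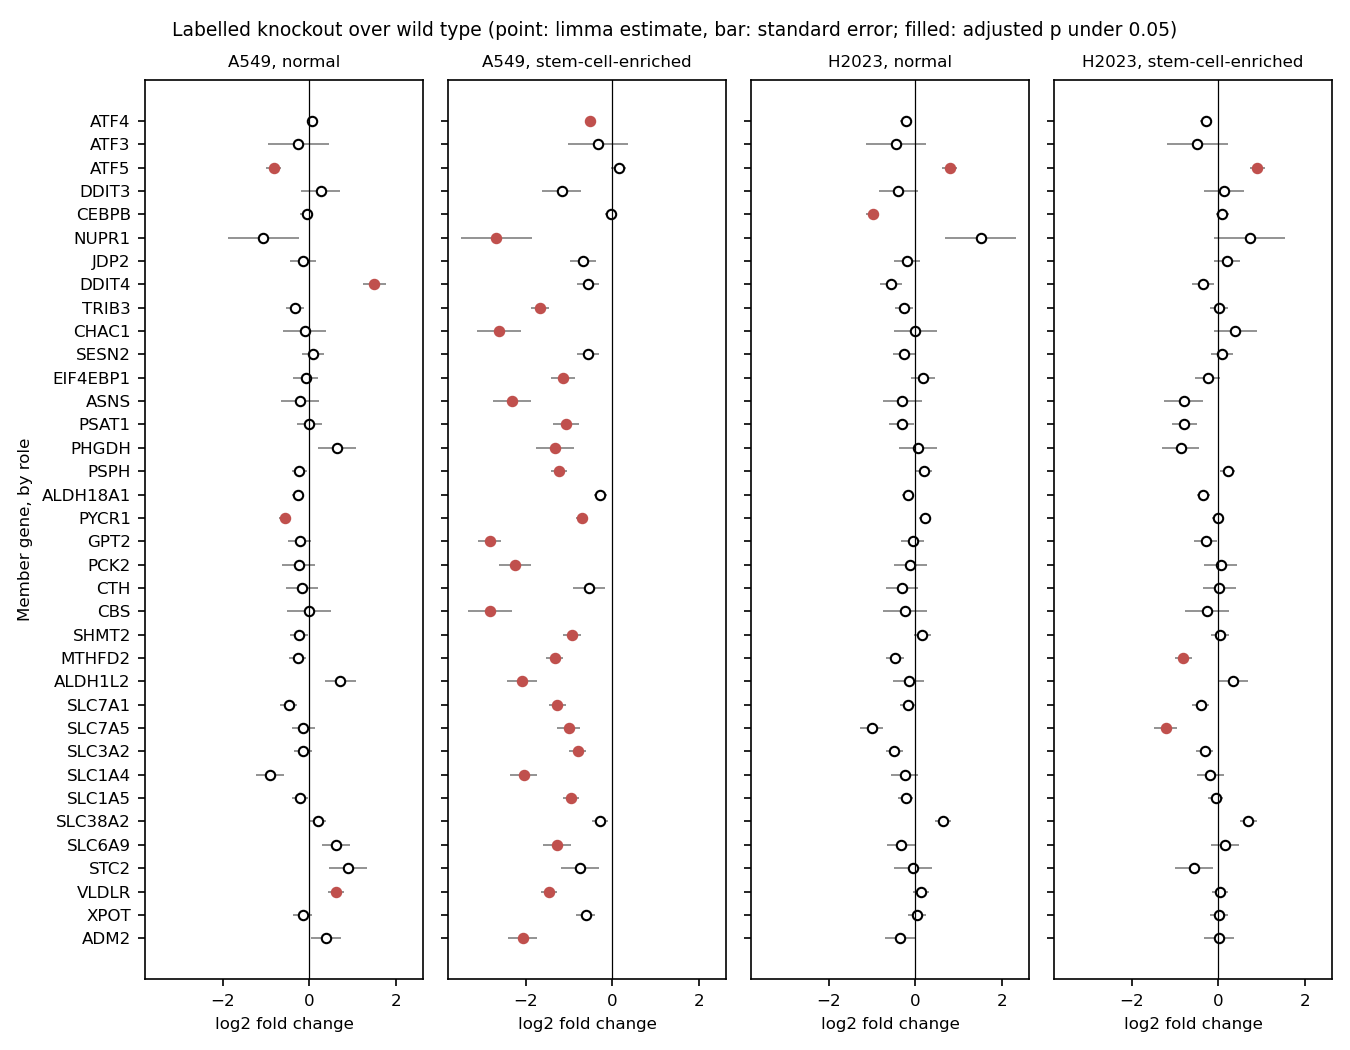
Log2 fold change of labelled knockout over wild type for each member (rows, by role) in the 4 comparisons, with the standard error as a bar and filled red points where the limma adjusted p is under 0.05. In A549 stem-cell-enriched culture 24 points are filled, all left of 0, against 4 in A549 normal, 2 in H2023 normal and 3 in H2023 stem-cell-enriched culture.

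In H2023 the genotypes differed in 2 members in normal culture and in 3 in stem-cell-enriched culture. ATF5 rose in both cultures, CEBPB fell in normal culture, and MTHFD2 and SLC7A5 fell in stem-cell-enriched culture. Over all genes 1.03% were higher and 1.97% lower in the first comparison (3.00% in all), and 3.17% higher and 2.40% lower in the second (5.56% in all), so neither count is far from the background. ATF5 was at 42.1, 55.8, 79.03 and 91.5 TPM in normal culture and at 63.5, 50.99, 116 and 99.1 TPM in stem-cell-enriched culture. The labelled-knockout values were above wild type in both, 0.80 ± 0.17 (limma, adjusted p = 0.0303) and 0.90 ± 0.17 (adjusted p = 0.0133). CEBPB was at 158, 117, 64.4 and 72.02 TPM in normal culture (-0.98 ± 0.15, adjusted p = 0.00465) and at 87.1, 107, 96.4 and 109 TPM in the other. SLC7A5 was at 229.8, 285, 108 and 111 TPM in stem-cell-enriched culture, where the genotypes did not overlap (-1.22 ± 0.27, adjusted p = 0.023). In normal culture it was at 553, 1195, 443 and 365 TPM, with wild-type replicate 2 far above the other 3 and a change of -1.01 ± 0.27 that did not pass (adjusted p = 0.0658). MTHFD2 was at 145, 111, 94.05 and 87.99 TPM and at 97.6, 95.8, 53.6 and 55.7 TPM, below wild type in both libraries of both cultures, with the call in the second only (-0.81 ± 0.20, adjusted p = 0.0373).

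These H2023 calls rest on few libraries. In normal culture ATF5 was lost when any 1 of the 4 libraries was left out and CEBPB without labelled-knockout replicate 1. In stem-cell-enriched culture all 3 calls were lost without wild-type replicate 2 or without labelled-knockout replicate 1, MTHFD2 also without wild-type replicate 1, and MTHFD2 and SLC7A5 without labelled-knockout replicate 2. With only the 4 libraries of each comparison in the fit, no member was called in either culture. The authors' deposited tables give 6 members in normal culture (2 higher, 4 lower), beside 10.8% of all tested genes. In stem-cell-enriched culture they give 5 (1 higher, 4 lower), beside 5.07%. Those not called in limma are DDIT4, MTHFD2, SLC3A2 and SLC38A2 in normal culture and ASNS and PSAT1 in the other. The summed epithelial markers, mostly KRT8 and KRT18, were higher in the labelled knockout in both cultures. The sums were 7299, 5887, 10677 and 9816 TPM in normal and 3446, 3419.7, 6553 and 7087 TPM in stem-cell-enriched culture. Not all markers rose. In normal culture KRT19 (374, 258, 126 and 130 TPM) and EPCAM (20.3, 17.8, 15.6 and 11.9 TPM) were lower in both labelled-knockout libraries. CDH1 overlapped between genotypes in both cultures, and EPCAM overlapped in stem-cell-enriched culture. The part of these markers in the calls was not tested.

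No other member was called between genotypes in H2023. ATF4 was at 409, 318, 325 and 293 TPM in normal and 389, 367, 323 and 293 TPM in stem-cell-enriched culture, TRIB3 at 64.3, 44.3, 49.6 and 39.7 TPM and 165, 177, 179 and 164 TPM. CHAC1 was at 8.57, 2.13, 7.26 and 2.62 TPM and 3.92, 4.96, 6.33 and 5.87 TPM, and DDIT3 at 22.7, 15.7, 17.7 and 11.3 TPM and 14.6, 26.2, 17.2 and 26.9 TPM. None of these 4 was called, and in stem-cell-enriched culture TRIB3 overlapped between genotypes (change 0.00 ± 0.21) while both ATF4 values of the labelled knockout were lower. ATF3 was at 2.5, 2.35, 1.54 and 1.46 TPM and 3.0, 22.6, 2.59 and 12.4 TPM, with replicate 2 above replicate 1 in both genotypes of the second culture. NUPR1 was at 79.6, 33.1, 167 and 132 TPM and 66.2, 103, 114 and 164 TPM, and DDIT4 at 260.1, 199, 171 and 136 TPM and 245, 168, 159.9 and 156 TPM. NUPR1 was higher and DDIT4 lower in all 4 labelled-knockout libraries than in wild type of the same culture, with no call.

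For synthesis in H2023, ASNS was at 44.5, 25.3, 30.1 and 24.4 TPM in normal and 26.6, 34.8, 15.98 and 18.1 TPM in stem-cell-enriched culture, PSAT1 at 176, 116, 121 and 109 TPM and 119, 102, 71.5 and 56.7 TPM, and PHGDH at 114, 53.7, 88.5 and 74.7 TPM and 81.7, 49.5, 37.4 and 31.4 TPM. In the second culture all 3 were lower in both labelled-knockout libraries, with changes of -0.80 ± 0.45, -0.78 ± 0.29 and -0.87 ± 0.43. None passed in limma (adjusted p = 0.331, 0.146 and 0.27). The authors' deposited table calls ASNS (-0.99) and PSAT1 (-0.86) lower in that culture, but not PHGDH (-0.83). PSPH was at 40.6, 37.1, 46.9 and 42.5 TPM and 39.7, 36.4, 41.3 and 47.2 TPM, SHMT2 at 172, 135, 177 and 164 TPM and 132, 136, 148 and 129 TPM, and ALDH1L2 at 14.04, 8.21, 11.4 and 8.04 TPM and 10.1, 13.4, 12.6 and 17.8 TPM. GPT2 was at 15.2, 9.93, 14.3 and 9.58 TPM and 16.7, 13.6, 13.2 and 11.2 TPM, PCK2 at 21.3, 12.5, 16.8 and 13.5 TPM and 10.4, 11.7, 11.7 and 11.2 TPM, CBS at 40.7, 30.6, 37.6 and 23.3 TPM and 28.7, 27.9, 35.1 and 15.4 TPM, and PYCR1 at 78.6, 81.99, 105 and 82.7 TPM and 82.7, 100.04, 92.1 and 88.7 TPM. None of these 7 was called in H2023, and GPT2, the furthest apart in A549, changed by -0.07 ± 0.27 and -0.29 ± 0.27.

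For transport, SLC3A2 was at 450.0, 700.4, 401 and 397 TPM in normal and 272, 313, 229 and 240.4 TPM in stem-cell-enriched culture, SLC7A1 at 34.05, 27.2, 30.5 and 23.8 TPM and 16.1, 15.3, 11.8 and 11.2 TPM, and SLC38A2 at 173, 142, 274 and 219 TPM and 150.3, 115, 255 and 179 TPM. SLC38A2 was the nearest to a rise, with both labelled-knockout values above wild type in each culture (0.64 ± 0.19, adjusted p = 0.0986, and 0.69 ± 0.19, adjusted p = 0.053). SLC1A4 was at 5.77, 5.96, 5.02 and 4.57 TPM and 4.37, 7.22, 4.1 and 5.69 TPM, SLC1A5 at 230.3, 226, 202 and 189 TPM and 137, 161, 139 and 146 TPM, and SLC6A9 at 14.6, 14.6, 12.7 and 10.1 TPM and 10.8, 10.3, 12.6 and 11.2 TPM. VLDLR was at 21.01, 17.02, 23.8 and 18.3 TPM and 21.1, 19.8, 18.8 and 23.4 TPM, EIF4EBP1 at 67.5, 56.3, 64.97 and 74.7 TPM and 46.6, 46.1, 45.95 and 33.01 TPM, and ADM2 at 1.8, 0.66, 0.96 and 0.44 TPM and 1.24, 1.96, 1.6 and 1.58 TPM. None of these 6 was called.

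The difference between the 2 A549 genotype effects was tested directly. The effect was lower in stem-cell-enriched than in normal culture in 12 members and higher in 1, ATF5, against 4.10% and 5.61% of all genes (9.71% in either direction). The median difference was -1.06 over the members and 0.05 over all genes. The 12 were ALDH1L2 (-2.80 ± 0.50), CBS (-2.83 ± 0.71), GPT2 (-2.61 ± 0.38), CHAC1 (-2.51 ± 0.71), ADM2 (-2.46 ± 0.48), VLDLR (-2.09 ± 0.27), DDIT4 (-2.06 ± 0.36), PCK2 (-1.998 ± 0.54), SLC6A9 (-1.89 ± 0.45), TRIB3 (-1.35 ± 0.29), MTHFD2 (-1.06 ± 0.28) and PSPH (-1.002 ± 0.25). For DDIT4 and VLDLR the difference includes a rise in normal culture. Without wild-type replicate 1 of stem-cell-enriched culture, 7 of the 13 remained and TRIB3, CHAC1, PSPH, MTHFD2, PCK2 and CBS were lost, against 5.37% of all genes called; without its replicate 2 there were 23 calls. Leaving out any of the 6 other A549 libraries gave 5 to 9 calls: 5 without wild-type replicate 1 or labelled-knockout replicate 1 of normal culture or labelled-knockout replicate 2 of the other, 6 without labelled-knockout replicate 2 of normal culture, 8 without labelled-knockout replicate 1 of stem-cell-enriched culture and 9 without wild-type replicate 2 of normal culture. Culture and time changed together, so the 2 cannot be told apart.

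In H2023 the same test called no member, against 0.00549% of all genes, that is 1 gene. At an unadjusted p under 0.05 limma gave 1 member and 1270 genes, and a difference of the authors' deposited fold changes also called none, against 0.390% of all genes. Between lines, the effect in stem-cell-enriched culture was higher in H2023 than in A549 in 15 members and lower in none, against 9.37% and 6.90% of all genes (16.3% in either direction). The widest of these were CHAC1 (3.01 ± 0.71, limma, adjusted p = 0.0128), CBS (2.57 ± 0.71) and GPT2 (2.54 ± 0.38, adjusted p = 0.000954). The others were ALDH1L2, PCK2, ADM2, SLC1A4, TRIB3, VLDLR, PSPH, SLC6A9, SLC38A2, SHMT2, SLC1A5 and PYCR1. This count was 7 without wild-type replicate 1 of A549 (6.58% of all genes), 23 without its replicate 2, 5 without A549 labelled-knockout replicate 2, 9 without H2023 labelled-knockout replicate 1 and 7 when only the 8 libraries of the comparison were fitted. In normal culture 4 members differed between lines, against 6.61% of all genes higher, 5.46% lower and 12.1% in either direction: ATF5 and PYCR1 were higher in H2023 (1.62 ± 0.25 and 0.79 ± 0.20) and DDIT4 and CEBPB lower (-2.07 ± 0.36 and -0.92 ± 0.21). That count was 2, with CEBPB and PYCR1 lost, without A549 wild-type replicate 1 or without H2023 labelled-knockout replicate 1.

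Culture itself moved many members in wild-type A549, and 17 rose and 2 fell from normal to stem-cell-enriched culture, against 19.1% and 22.4% of all genes (41.5% in either direction). TRIB3 (2.27 ± 0.21), GPT2 (2.20 ± 0.27), ADM2 (2.20 ± 0.34), DDIT4 (2.17 ± 0.25), CHAC1 (1.93 ± 0.50), ALDH1L2 (1.88 ± 0.35), CTH (1.85 ± 0.37) and SESN2 (1.75 ± 0.25) rose furthest. SLC7A5 (-1.03 ± 0.27) and ATF5 (-0.84 ± 0.17) fell. Of the 17 that rose, 11 are also among the 24 that were lower in the labelled knockout in stem-cell-enriched culture, but both comparisons use the same 2 wild-type libraries. The share of all genes with both calls was not computed, so no background stands beside the 11. Without wild-type replicate 1 of stem-cell-enriched culture 10 rose and 4 fell (14.2% and 18.0% of all genes), with ATF4, DDIT3, CHAC1, CEBPB, PSPH, PCK2 and SLC1A4 lost and SLC7A1 and SLC3A2 gained. In the labelled knockout, which shares no library with wild type, 5 members rose and 12 fell, against 11.4% and 11.0% of all genes (22.4% in either direction). Those that rose were CTH, SESN2, TRIB3 (0.92 ± 0.21), CEBPB and ALDH18A1, and the falls included SLC7A5 (-1.90 ± 0.27), STC2 (-1.87 ± 0.44), PHGDH (-1.83 ± 0.43), CBS (-1.60 ± 0.50) and ASNS (-1.53 ± 0.45). Leaving out 1 library left 6 (labelled-knockout replicate 2 of stem-cell-enriched culture), 7 and 8 (replicates 1 and 2 of normal culture) or 11 (replicate 1 of stem-cell-enriched culture) of these 17 calls.

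**Figure D5:**
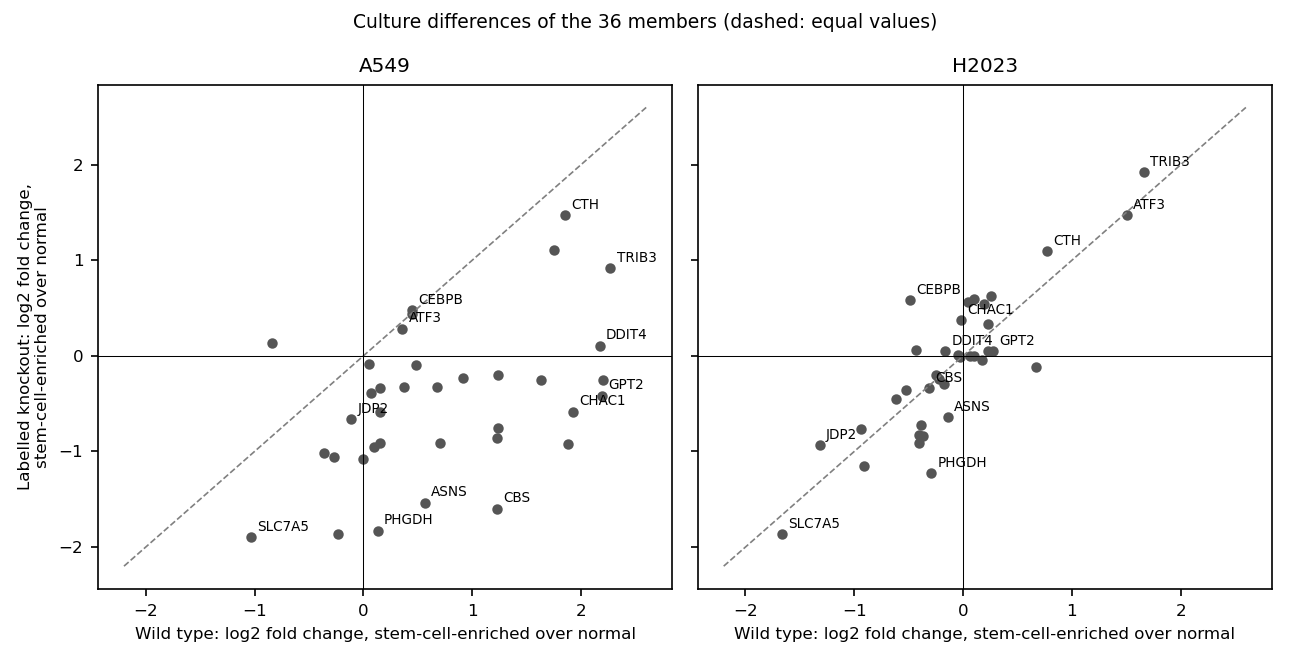
Log2 fold change of stem-cell-enriched over normal culture for the 36 members, in wild type (x axis) against the labelled knockout (y axis), for A549 (left) and H2023 (right); the dashed line marks equal values and 12 members are labelled. In A549 most points lie under the line, with GPT2 at 2.20 and -0.42 and CHAC1 at 1.93 and -0.58, while in H2023 TRIB3 (1.66 and 1.92) and SLC7A5 (-1.66 and -1.87) mark the 2 ends.

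In H2023 culture moved fewer members. In wild type TRIB3 rose (1.66 ± 0.21) and 6 fell, SLC7A5 (-1.66 ± 0.27), JDP2 (-1.32 ± 0.30), SLC3A2, SLC7A1, SLC1A5 and CEBPB, against 5.17% of all genes higher and 22.2% lower (27.4% in either direction). In the labelled knockout TRIB3 (1.92 ± 0.21), CTH (1.10 ± 0.37) and CEBPB rose and 8 fell, among them SLC7A5 (-1.87 ± 0.27), PHGDH (-1.22 ± 0.43) and SLC7A1 (-1.16 ± 0.19), against 9.76% and 22.7% of all genes (32.5% in either direction). The median of all genes was -0.18 and -0.12 in these comparisons, and it was -0.02 and 0.02 when mitochondrial genes were left out of the TPM sum, and 0.06 and 0.04 when libraries were centred on their median. With either rescaling wild type had 3 members higher and 4 lower (10.3% and 9.68% of all genes with centring). The labelled knockout had 3 higher and 4 lower with centring (14.1% and 15.2% of all genes) and 5 higher and 2 lower without mitochondrial genes. Relative to all genes the falls are thus smaller, and those of PSAT1, PHGDH, EIF4EBP1 and JDP2 in the labelled knockout and of SLC1A5 and CEBPB in wild type did not pass under either rescaling. TRIB3 rose and SLC7A5 fell in all 4 culture comparisons, also under both rescalings. With 1 library left out, the call of SLC7A5 in wild-type A549 and that of TRIB3 in labelled-knockout A549 did not always hold, though no sign changed. One library left out gave 4 calls in wild type without normal-culture replicate 1, and 3 to 6 in the labelled knockout (3 and 4 without replicates 1 and 2 of normal culture, 6 and 5 without those of the other), and with only the libraries of the comparison wild type kept 1 call, TRIB3.

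The 36 members thus divided by comparison as follows. In the knockout comparisons 27 were called at least 1 time and 9 never, ATF3, DDIT3, SESN2, ALDH18A1, CTH, SLC38A2, STC2, XPOT and JDP2. Over all genes 17.7% and 20.7% were called in A549 normal and stem-cell-enriched culture, and 3.00% and 5.56% in those of H2023. The share of all genes called at least 1 time was not computed, so no background stands beside the 27. Of the 24 lower in A549 stem-cell-enriched culture, 20 were called in no other knockout comparison, and MTHFD2, SLC7A5, PYCR1 and VLDLR were called in 1 more. The call in another comparison was in the same direction for MTHFD2, SLC7A5 and PYCR1 and the opposite one for VLDLR. Whether calls in 1 comparison and not in another reflect a difference is given by the direct tests above.

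Related genes that are not members were listed by function and counted in A549 stem-cell-enriched culture. Of 19 measured further ATF4 and CHOP targets, 6 fell and 1 rose (median -0.52), with TXNIP at -2.15 ± 0.44, NIBAN1 at -1.64 ± 0.36 and HMOX1, a haem-degrading enzyme, at 1.37 ± 0.33. Of 20 cytosolic aminoacyl-tRNA synthetases, which charge tRNA and include ATF4 targets, 6 fell and 1 rose (median -0.29), the widest being GARS1 at -1.45 ± 0.23, CARS1 at -1.21 ± 0.24 and MARS1 at -0.84 ± 0.22. Of 18 measured other amino acid transporters, 7 fell and 1 rose (median -0.25), with SLC7A7 at -3.32 ± 0.23, SLC7A2 at -2.15 ± 0.46 and the glutamate carrier SLC1A3 at 1.94 ± 0.55. Among 20 other enzymes of amino acids and folate, 5 rose and 4 fell, led by PRODH, which degrades proline, at -3.03 ± 0.24, the cytosolic ALDH1L1 at 2.64 ± 0.29 and GLDC, which cleaves glycine, at -1.56 ± 0.27. Upstream, of 20 eIF2 kinases and initiation factors 1 rose and 2 fell (median 0.04), the kinase EIF2AK2 at -1.23 ± 0.19 being the widest. For the other arms of the unfolded protein response, 1 of 20 ATF6 and IRE1 targets rose and 5 fell (median -0.30), led by XBP1 at -1.27 ± 0.18. Without wild-type replicate 1 the falls numbered 5, 2, 3, 3, 1 and 2 and the rises 0, 1, 2, 3, 0 and 0, in the order of these 6 lists. The size of the SLC1A3 rise rested on 1 library, since the gene was at 0.21, 0.16, 10.3 and 0.84 TPM, and the change was 0.64 without labelled-knockout replicate 1 (limma, adjusted p = 0.00789). It was not called without either wild-type library (adjusted p = 0.0954 and 0.0902). Without wild-type replicate 1 the change was -1.28 for TXNIP, -0.93 for NIBAN1, -0.71 for CARS1 and -0.44 for MARS1. The calls of MARS1 (adjusted p = 0.152), SLC7A2 (0.059) and HMOX1 (0.0848) were lost there, and those of MARS1 (0.108), SLC7A2 (0.0527), HMOX1 (0.106) and NIBAN1 (0.0519) without labelled-knockout replicate 2. The same share of all genes applies as for the members, 10.5% lower and 10.2% higher, and whether these lists differ from the members was not tested.

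In A549 normal culture 6 of the 117 measured genes of these 6 lists rose and 20 fell, beside 7.32% of all genes higher and 10.4% lower. The widest were SLC7A7 at -4.52 ± 0.23, ALDH1L1 at 2.51 ± 0.29 and GLDC at -2.17 ± 0.27. SLC7A7, PRODH, GLDC, ALDH1L1, XBP1 and NIBAN1 were among the genes called with the same sign in both A549 cultures, and were named together after their values were seen. The normal-culture call of NIBAN1 was lost without wild-type replicate 2 (adjusted p = 0.0748) and without either labelled-knockout library (0.0628 and 0.0532). In H2023 none of the 117 rose in either culture, beside 1.03% and 3.17% of all genes. In normal culture 4 fell, SLC7A7, XBP1, PPP1R15B and PDIA4, beside 1.97% of all genes, and in stem-cell-enriched culture 3 fell, SLC7A2 at -2.48 ± 0.46, GOT1 and PDIA4, beside 2.40%. Each of these H2023 calls but that of SLC7A7 was lost in 2 to 4 of the 4 runs that left out 1 library.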

How the data were processed

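RNA of 16 libraries, 2 for each of 8 groups, was sequenced from stranded mRNA libraries made with 1 µg of total RNA per the labels' protocols. HISAT2, StringTie and GRCh38 are named in the submitters' processing notes, with no versions or annotation. Each of the 4 deposited tables holds the 4 libraries of a line in a culture. Expression is in TPM, computed by the authors; the header does not name the unit, which was read from the values. The deposited mean over libraries is a signal of normalized coverage, the deposited log2 fold change and its standard error are on a log2 scale, the test statistic is a score, and the deposited p-value has an adjusted form, per the file headers. That statistic has the opposite sign to the fold change in every row, and the fold change was used for direction. A library's line was read from its table, and its culture, genotype and replicate from its column. Of 18361 rows, 18227 genes remained after 119 identifiers with repeated identical rows were used 1 time each.

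Because the values are not counts, limma 3.58.1 (R 4.3.3) was run with its trend option on log2(TPM + 1), in 1 fit of 8 group means over all 16 libraries with 8 residual degrees of freedom, two-sided, with Benjamini-Hochberg adjustment over 18227 genes and a threshold of 0.05. No gene was filtered, so all 36 members were tested. The fit was also run on simulated data in which a gene had the same spread in all groups. That run does not cover a group whose libraries lie further apart, such as wild-type A549 of stem-cell-enriched culture. Members, pathway lists and markers were chosen with earlier results of these data known. Named with the value in every library were ATF4, ATF3, DDIT3, TRIB3, CHAC1, ASNS, PSAT1, PHGDH and each other member past the threshold in a knockout comparison or in a difference between cultures; of each pathway list, the 3 members with the largest called change could be named. Alternatives were a pseudocount of 0.1, a mean of at least 1 TPM, only the libraries of a comparison, a replicate block, TPM without mitochondrial genes, centring on library medians, each library left out in turn, and the authors' deposited results. The depth of each library is unknown, and no interval or floor was computed. Sequences are from RefSeq promoters (GRCh38.p14), where 29 of 36 members matched by symbol; GPT2, SHMT2, PYCR1, NUPR1, PSPH, EIF4EBP1 and ALDH1L2 did not.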

Additional observations from a re-analysis of the deposited data

Results flagged for a closer look

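The knockout effect differed between cultures or between lines in 19 members by a direct test of the difference in limma, on the log2(TPM + 1) scale. The share of all genes that passed at least 1 of these tests was not computed, so no background stands beside the 19. In A549 the effect in stem-cell-enriched culture minus that in normal culture passed for 13 members: ATF5 (0.97), DDIT4 (-2.06), TRIB3 (-1.35), CHAC1 (-2.51), PSPH (-1.002), MTHFD2 (-1.06), ALDH1L2 (-2.80), GPT2 (-2.61), PCK2 (-1.998), CBS (-2.83), SLC6A9 (-1.89), VLDLR (-2.09) and ADM2 (-2.46). The adjusted p of these ran from 0.00109 to 0.0447, and 9.71% of all genes passed the same test. ATF5 is the only positive value, and it comes from a fall in normal culture with no call in the other.

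In normal culture the effect in H2023 minus that in A549 passed for 4 members: ATF5 (1.62), DDIT4 (-2.07), CEBPB (-0.92) and PYCR1 (0.79). The adjusted p ran from 0.00185 to 0.024, against 12.1% of all genes. ATF5 fell in labelled-knockout A549 and rose in labelled-knockout H2023 of this culture.

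In stem-cell-enriched culture the same difference between lines passed for 15 members, each positive: TRIB3 (1.68), CHAC1 (3.01), PSPH (1.45), SHMT2 (0.98), ALDH1L2 (2.43), PYCR1 (0.70), GPT2 (2.54), PCK2 (2.30), CBS (2.57), SLC1A4 (1.86), SLC1A5 (0.89), SLC38A2 (0.98), SLC6A9 (1.43), VLDLR (1.51) and ADM2 (2.08). The adjusted p ran from 0.000954 to 0.0487, against 16.3% of all genes. The 2 A549 tests share the stem-cell-enriched A549 libraries, so their counts are not separate evidence. LYZ, which was higher in the wild-type than in the labelled-knockout libraries of this A549 culture, moved with these groups, and its part was not tested.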

How the results depend on the processing

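None of the 119 changes of single members called with all libraries changed sign under the alternatives run. Of the 111 uncalled changes in the knockout comparisons, 45 changed sign under at least 1 alternative. NUPR1, uncalled for culture in wild-type A549 (0.70), was at -1.05 without stem-cell-enriched wild-type replicate 1. Some medians over members that lay near 0 also changed sign; for example, the median turned from -0.21 to 0.06 for the knockout in H2023 normal culture without wild-type replicate 1. For culture in H2023 it turned from -0.15 to 0.09 in wild type and from -0.03 to 0.19 in the labelled knockout without mitochondrial genes, and the calls of the latter from 3 higher and 8 lower to 5 higher and 2 lower. Leaving out 1 library in turn gave 1 to 3 calls for the knockout in A549 normal culture (4 with all libraries), 16 to 26 in A549 stem-cell-enriched culture (24), 0 to 2 in H2023 normal culture (2) and 0 to 2 in H2023 stem-cell-enriched culture (3). For culture it gave 13 to 24 in wild-type A549 (19), 6 to 11 in labelled-knockout A549 (17), 4 to 6 in wild-type H2023 (7) and 3 to 6 in labelled-knockout H2023 (11). The difference between cultures gave 5 to 23 in A549 (13) and 0 in H2023 each time, and the difference between lines 2 to 4 in normal (4) and 5 to 23 in stem-cell-enriched culture (15). With only the libraries of the comparison the counts were 15 for the knockout in A549 stem-cell-enriched culture, 0 in both H2023 cultures, 1 for culture in wild-type H2023 and 7 for the difference between lines in stem-cell-enriched culture. For culture in labelled-knockout H2023, 7 were called without mitochondrial genes and 7 with centring. The authors' deposited tables gave 11 for A549 normal, 25 for A549 stem-cell-enriched, 6 for H2023 normal and 5 for H2023 stem-cell-enriched culture. Differences of their fold changes gave 23 in A549 and 8 between lines in normal culture. These tables are of a separate model, and the cause of each shift was not tested. A pseudocount of 0.1 left 117 of 119 called changes of single members called, and the 1 TPM filter all 119.

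The replicate number shows no shared origin in the labels, and same-numbered libraries of the 2 genotypes deviated together only weakly in 3 of the 4 tables (correlations across genes of 0.07 and 0.13 in A549 and of 0.03 and 0.46 in H2023, normal culture first). With a replicate block the counts were 8 in A549 normal culture, 5 in H2023 stem-cell-enriched culture and 21 for the difference between A549 cultures, and the other counts stayed within 1.5 times. With 2 libraries a group and the depth of each library unknown, little can be said of members at low TPM such as ADM2 and ATF3.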

Other observations

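Levels of the members, which TPM makes comparable between genes, spanned a wide range. The highest means over the 16 libraries were those of SLC3A2 (399 TPM) and SLC7A5 (395 TPM), the 2 chains of the LAT1 exchanger, then DDIT4 (323 TPM) and ATF4 (317 TPM). Single libraries ran from 228 to 700.4 TPM for SLC3A2, from 108 to 1195 TPM for SLC7A5 and from 251 to 409 TPM for ATF4. ADM2 had the lowest mean, 1.58 TPM, with libraries from 0.33 to 8.55 TPM. STC2 was at 19.9 TPM or more in every A549 library and at 13.9 TPM or less in every H2023 library. NUPR1 was at 0.77 to 45.9 TPM in A549 and at 33.1 to 167 TPM in H2023, and these lines were not tested against each other.

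ATF3 differed more between replicate numbers than between genotypes in H2023 stem-cell-enriched culture, at 22.6 and 12.4 TPM in the replicate 2 libraries of wild type and labelled knockout and at 3.00 and 2.59 TPM in the replicate 1 libraries. The labelled knockout was the lower of each pair, with no call. What the replicate numbers share is not given in the labels.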
